A study of Mus musculus with 163 samples.

Results

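The potassium channel genes of cochlear hair cells were taken as every gene whose mouse symbol starts with Kcn, leaving out antisense and host transcripts and Kcnn2, which was set aside. Of 99 such symbols 93 remained, out of 55291 genes in the count table. Their levels were compared in 163 single hair cells picked at postnatal day 7 (P7) from mice with and without the RNA-binding protein gene Rbm24. The control mice carried Atoh1P2A-Tdtomato/+, a reporter in the gene of the hair cell factor Atoh1. The mutant mice carried Atoh1P2A-Cre/P2A-Tdtomato; Rbm24flox/flox, so that Cre was made where Atoh1 is expressed. Both genotypes shared the Tdtomato allele, while Cre, the second modified Atoh1 allele and the floxed Rbm24 alleles were present in the mutants alone and cannot be told apart. Outer hair cells numbered 43 in controls (Ctrl OHC) and 56 in mutants (Exp OHC), and inner hair cells 38 in controls (Ctrl IHC) and 26 in mutants (Exp IHC). Both hair cell types are sensory cells: outer hair cells amplify sound vibration, and inner hair cells signal it to the auditory nerve.

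Potassium is the ion that carries most of the current of a hair cell. It enters from the potassium-rich endolymph through the mechanically gated channels of the hair bundle and leaves through potassium channels of the cell body, which set the resting potential and the speed of the receptor potential. Kcnma1, the pore of the large-conductance calcium-activated (BK) channel, carries the fast current of inner hair cells, which appears as hearing starts. Inward rectifiers (Kcnj), two-pore leak channels (Kcnk), delayed rectifiers (Kcna, Kcnb, Kcnc), the ether-à-go-go family (Kcnh) and a set of silent and auxiliary subunits add to or modify these currents.

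The bases upstream of 4 members are shown because Kcna10 and Kcnj13 had the highest levels per length in all 4 groups, and because the related Kcnh6 and Kcnh7 were both higher in mutant cells. They come from RefSeq promoter windows on GRCm38.p6, are written 5′ to 3′ on the strand of the gene, and end before the first exon base. Capitals mark CAGNTG on either strand, an E-box form bound by basic helix-loop-helix factors such as Atoh1, whose gene was altered in these mice.
Kcna10, chr3:107182893-107183055, plus strand: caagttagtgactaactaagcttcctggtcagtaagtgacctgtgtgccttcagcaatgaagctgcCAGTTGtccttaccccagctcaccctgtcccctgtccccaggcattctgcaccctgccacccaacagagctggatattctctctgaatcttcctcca
Kcnj13, chr1:87394730-87394979, minus strand: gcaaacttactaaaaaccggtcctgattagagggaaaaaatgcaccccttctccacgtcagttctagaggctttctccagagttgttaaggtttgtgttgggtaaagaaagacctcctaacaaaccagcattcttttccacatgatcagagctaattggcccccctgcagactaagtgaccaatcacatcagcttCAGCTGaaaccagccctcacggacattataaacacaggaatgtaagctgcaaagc
Kcnh6, chr11:106007898-106008123, plus strand: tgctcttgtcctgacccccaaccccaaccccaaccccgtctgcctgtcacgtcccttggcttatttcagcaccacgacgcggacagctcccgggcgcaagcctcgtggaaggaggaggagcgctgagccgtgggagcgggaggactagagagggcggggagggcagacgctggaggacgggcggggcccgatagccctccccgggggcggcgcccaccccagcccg
Kcnh7, chr2:63184288-63184537, minus strand: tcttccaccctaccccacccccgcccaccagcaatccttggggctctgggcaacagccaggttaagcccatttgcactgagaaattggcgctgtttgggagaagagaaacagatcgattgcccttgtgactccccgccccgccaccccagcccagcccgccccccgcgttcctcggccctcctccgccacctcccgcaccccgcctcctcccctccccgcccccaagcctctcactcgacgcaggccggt
The windows of Kcna10 and Kcnj13 held 1 match each and those of Kcnh6 and Kcnh7 held 0. Over 250 bases upstream, 48 of the 94 windows matched to 69 members held CAGNTG (51.1%), beside 44.8% of 32851 windows of all genes. The looser form CANNTG, of which CAGNTG is a part, was in 67.0% of the members' windows and in 66.2% of all windows. A match is a description of letters and not a binding site.

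No label names the animal of a cell, so each group counts as 1 sample, no test was possible, and the spread given below is that between cells. Totals per cell ran from 5.47e+06 to 1.81e+07 counts, with medians of 9.09e+06, 1.28e+07, 8.67e+06 and 1.42e+07 in Ctrl and Exp OHCs and Ctrl and Exp IHCs. Levels are counts per 1e+06 counts (CPM), from the counts summed over a group's cells. The deleted gene Rbm24 stood at 315 CPM in Ctrl OHC and 0.212 in Exp OHC, and at 431 CPM in Ctrl IHC and 1.51 in Exp IHC. The 5 hair cell markers were above 10 CPM in every group. The 4 outer hair cell markers summed to 5608 CPM in Ctrl OHC but to 116 CPM in Exp OHC, and 1 Ctrl OHC had the defining markers Slc26a5 at 0.156 CPM and Ikzf2 at 0 and, at 460.3 CPM, the highest supporting cell marker sum of its group. How a picked cell was called outer or inner is not given in the sources used here. Y-linked transcripts without Xist were found in 32 of 43 Ctrl OHCs and 16 of 56 Exp OHCs, and in 26 of 38 Ctrl IHCs and 7 of 26 Exp IHCs; these are called Y-linked cells below, and those with Xist are called Xist cells. The pseudogene Gm15772 fell into separate ranges, 71 cells at 2.86 to 22.1 CPM and 92 at 61.4 to 768 CPM, and the low range held 25, 16, 23 and 7 cells of the 4 groups in the same order. Ratios were therefore also taken within Y-linked, Xist, Gm15772-low and Gm15772-high cells, and the part of these differences in the results was not tested. In mutants the Y-linked and Gm15772-low sets had the same number of cells, 16 Exp OHCs and 7 Exp IHCs. Xist and Gm15772-high Exp IHCs numbered 19 each. Within each of these pairs the median, lowest and highest cell of the members compared were the same, so the paired sets are not separate checks.

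Of the 93 members, 21 reached 10 CPM in at least 1 group, 31 peaked between 1 and 10 CPM, 30 stayed under 1 CPM, and 11 had no count in any cell. The 11 were Kcna3, Kcna7, Kcnd2, Kcne1, Kcnh5, Kcnj1, Kcnj5, Kcnk5, Kcnk15, Kcnmb1 and Kcnv1, among them Kcne1, which with Kcnq1 forms the potassium channel of the stria vascularis. A single hair cell held a median of 11 members at 10 CPM or more in Ctrl OHC and 12 in Exp OHC, and a median of 15 in both IHC groups. Summed over all members, a cell held a median of 2097 CPM in Ctrl OHC, with the cells between 1065 and 3150. The median was 1777 CPM in Exp OHC (1126 to 3060), 2914 CPM in Ctrl IHC (1712 to 3748) and 2666 CPM in Exp IHC (1629 to 3589). The groups overlapped, and the inner hair cells held more potassium channel counts than the outer hair cells in both genotypes. Counts per kilobase of exon, taken to compare genes, put Kcna10 and Kcnj13 in the first places of each group. The length is that of all annotated exons of a gene, which can exceed the transcript made, so comparisons between genes are approximate. Kcna10 stood at 351 and 129 CPM per kb in Ctrl OHC and Exp OHC and at 455 and 371 in Ctrl IHC and Exp IHC, and Kcnj13 at 309, 153, 465.5 and 208 in that order. The next places were held by Kcnk1 and Kcns3 in Ctrl OHC, at 88.7 and 50.9 CPM per kb, and by Kcnh6 and Kcnmb2 in Ctrl IHC, at 53.2 and 47.0 CPM per kb.

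**Figure D1:**
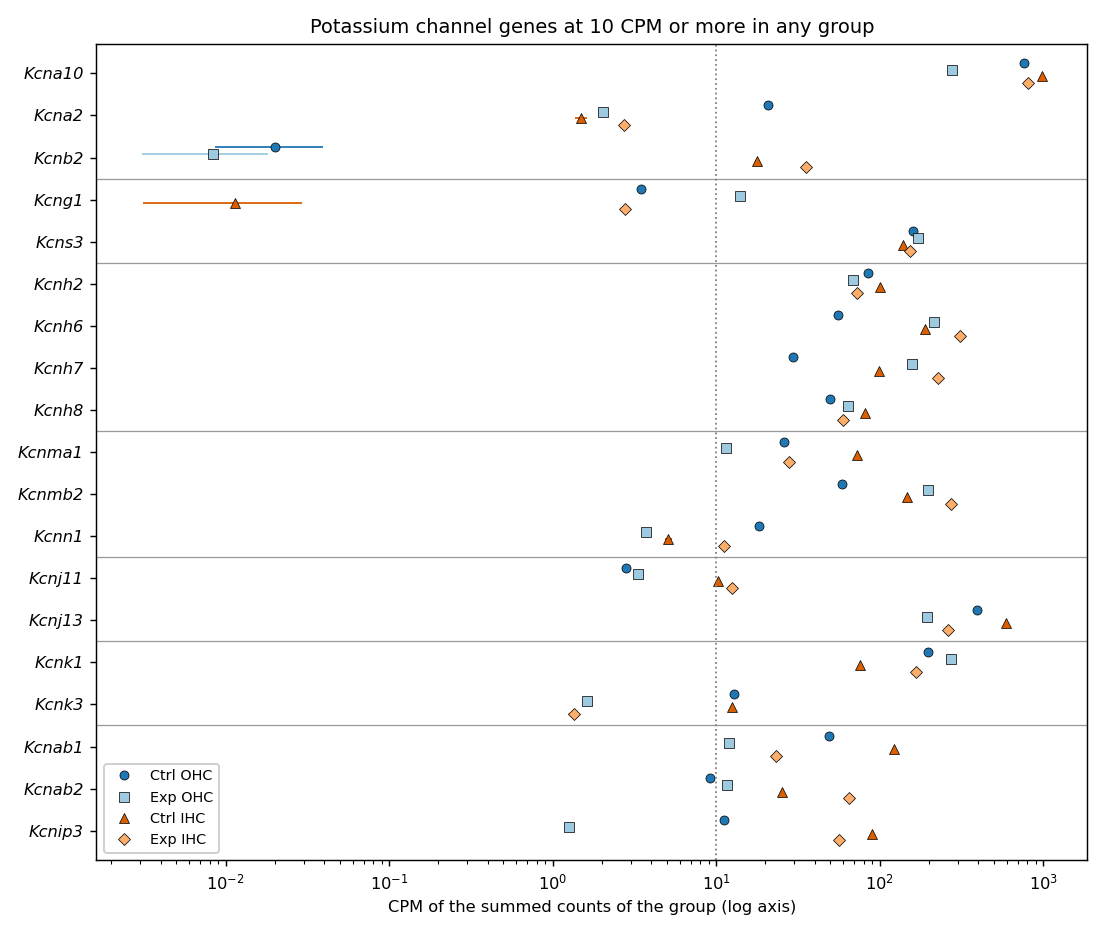
Level of 19 of the 21 members at 10 CPM or more in at least 1 group, in CPM of the summed counts on a log axis, with markers for the 4 groups, lines for the exact Poisson 95% interval where it is wider than the marker, and a dotted line at 10 CPM. Kcna10 and Kcnj13 lie furthest right in the control groups, and Kcnb2 lies near 0.01 CPM in both OHC groups and above 10 CPM in both IHC groups.

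The makeup of the potassium channel counts differed between the genotypes more than their sum did. The Kcnh class (EAG, ERG and ELK channels) took 10.6% of all member counts in Ctrl OHC and 27.1% in Exp OHC, and 16.3% and 24.7% in Ctrl IHC and Exp IHC. The inward rectifiers took 19.9% in Ctrl OHC and 10.8% in Exp OHC, and 21.2% and 10.7% in the IHC groups. The Kv1 to Kv4 class took 39.7% in Ctrl OHC and 20.5% in Exp OHC, and 36.8% and 33.8% in Ctrl IHC and Exp IHC. A few genes make up each of these sums: Kcna10 alone was 36.9% of all member counts in Ctrl OHC and 14.9% in Exp OHC, and 34.2% and 29.8% in the IHC groups. The class of BK, SK and Slo channels also holds the BK beta subunits. In summed level it was at 109 and 226 CPM in Ctrl OHC and Exp OHC, and at 231 and 319 CPM in the IHC groups. The rise was that of the beta subunit Kcnmb2. Kcnmb2 stood at 58.7 and 198 CPM in the OHC groups and at 147 and 272 CPM in the IHC groups. The other members of the class summed to less in the mutant than in the control group of both types. The leak channels stood at 213 and 279 CPM in the OHC groups and at 91.3 and 174 CPM in the IHC groups. The class of auxiliary subunits, which does not hold the BK beta subunits, was lower in mutants. It went from 75.8 CPM in Ctrl OHC to 34.4 in Exp OHC and from 241 CPM in Ctrl IHC to 154 in Exp IHC.

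**Figure D2:**
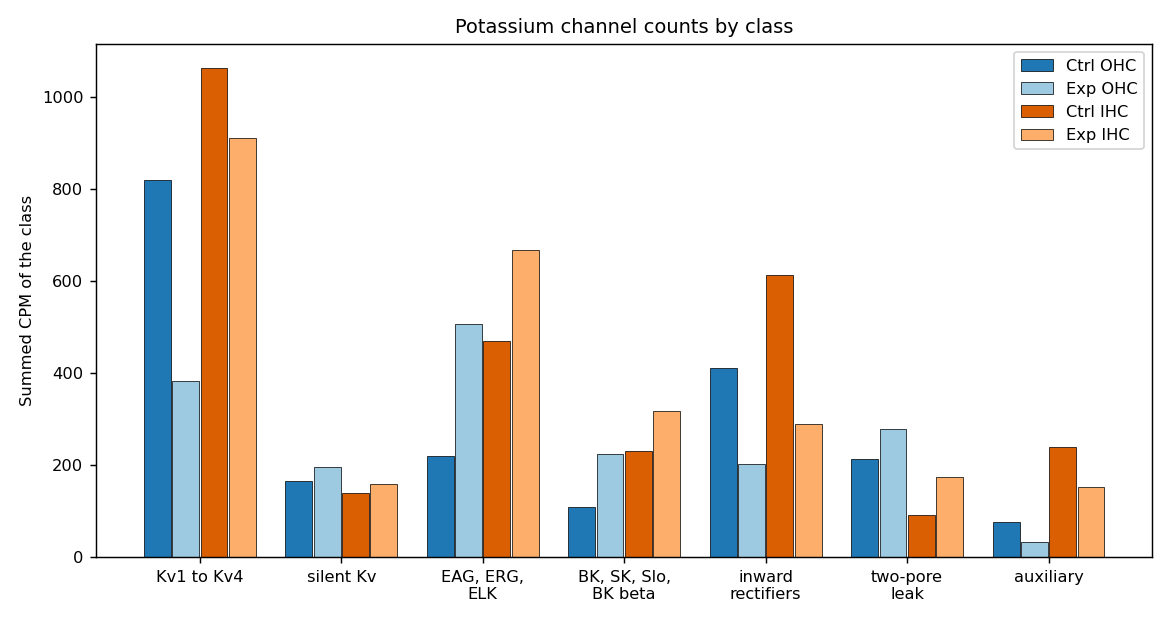
Summed CPM of the members of 7 channel classes in the 4 groups, as bars from 0. The Kcnh class is higher and the inward rectifiers are lower in the mutant than in the control bar of both hair cell types, while the Kv1 to Kv4 class is at 819 CPM in Ctrl OHC and 383 CPM in Exp OHC.

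Ratios between groups are log2 ratios of CPM, with an exact 95% interval that covers counting error only, since reads that carry no molecular identifier may be copies of 1 molecule. A member was set against the whole table where the mean of both groups was 1 CPM or more, and was counted as higher or lower past a 2-fold ratio. Between Exp OHC and Ctrl OHC 38 members passed that filter, 14 of them higher (36.8%) and 13 lower (34.2%), where 18.4% of 14588 genes were higher and 13.1% were lower. Between Exp IHC and Ctrl IHC 36 passed, with 13 higher (36.1%) and 6 lower (16.7%), against 18.8% and 11.7% of all genes. Most of these members are low: at a mean of 10 CPM or more, 4 of 16 were higher and 6 of 16 lower in Exp OHC, beside 11.8% and 7.45% of all genes at that level. In Exp IHC 3 of 17 were higher and 3 of 17 lower at that level, beside 11.1% and 5.68% of 9122 genes. The median log2 ratio of the members that passed was 0.17 in outer hair cells, beside 0.06 for all genes, and 0.51 in inner hair cells, beside 0.11. Counts within a channel class or the partner list, given below, rest on few genes. They are to be read beside the shares of all genes at 1 CPM given here. Counts of members at low levels rest on few cells: with each group's highest cell left out, the 14 and 13 became 8 and 10, and the 13 and 6 became 6 and 5. The members that passed the filter also fell, to 27 in outer and 24 in inner hair cells. Shares of all genes were not taken under this setting.

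Kcna10, a Kv1 channel of hair cells of the cochlea and the vestibular organs, had the highest CPM of all members in every group, while per kilobase Kcnj13 was above it in Exp OHC and Ctrl IHC. In Ctrl OHC its cells ran from 0.468 to 1874 CPM around a median of 753, and in Exp OHC from 0.141 to 720 CPM around 265. No Exp OHC exceeded the median of the Ctrl OHCs, and 22 of 43 Ctrl OHCs exceeded the highest Exp OHC, although the ranges overlapped. The group levels were 761 and 279 CPM, a log2 ratio of -1.45 (-1.46 to -1.44), which was -0.90 in Xist cells and -1.48 to -1.13 under the other settings tried.
The gene remained present: 53 of 56 Exp OHCs and 42 of 43 Ctrl OHCs held 10 CPM or more, and the single Ctrl OHC below it was the one without outer hair cell markers. Inner hair cells all held Kcna10, at 379 to 1647 CPM around a median of 997 in Ctrl IHC and at 219 to 1419 CPM around 685 in Exp IHC. Their log2 ratio of -0.29 (-0.30 to -0.29) did not reach 2-fold. It was -0.49 in Y-linked and -0.54 in Gm15772-low cells, but 0.0659 in Xist and 0.0689 in Gm15772-high cells, so that its direction turned between the sets. The difference between the ratios of the cell types was not tested. The gene (ENSMUSG00000042861.7) lies on the plus strand of mouse chromosome 3, from 107183056 to 107195721, 68.05 kb after Kcna2.

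Kcna2, its neighbour and a Kv1 channel of axons, stood at 20.9 CPM in Ctrl OHC, at 2.02 CPM in Exp OHC, and at 1.49 and 2.74 CPM in the control and mutant IHCs. Of 43 Ctrl OHCs 14 reached 10 CPM, with the highest at 183 CPM, but it did so in 2 of 56 Exp OHCs and in 1 of 38 Ctrl IHCs and 2 of 26 Exp IHCs. The log2 ratio of Exp OHC to Ctrl OHC was -3.37 (-3.45 to -3.29) and that of Ctrl OHC to Ctrl IHC was 3.81 (3.68 to 3.94). The latter was 5.87 with each group's highest cell left out. The ratio of Exp IHC to Ctrl IHC had the other sign, at 0.88 over all cells, 1.48 to 1.90 within the 4 sets of cells and 2.02 with the highest cells left out. In Y-linked, Xist and Gm15772-low cells the OHC and IHC ratios of Kcna2 were past 2-fold in opposite directions. Kcna2 transcripts were thus found in part of the control outer hair cells and in few cells of the other groups.

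Kcnb2, a delayed rectifier, was an inner hair cell gene in these data. Kcnb2 reached 10 CPM in 17 of 38 Ctrl IHCs, with the highest at 102 CPM, and in 11 of 26 Exp IHCs, with the highest at 144 CPM. It did so in 0 of 43 Ctrl OHCs, which at a limit of 3 cells allows a share of up to 6.98%, and in 0 of 56 Exp OHCs, which allows up to 5.36% at the same limit. The levels were 17.7 and 35.2 CPM in Ctrl IHC and Exp IHC and 0.020 and 0.0083 CPM in Ctrl OHC and Exp OHC. The log2 ratio of Ctrl OHC to Ctrl IHC was -9.79 (-11.00 to -8.81), and that of Exp IHC to Ctrl IHC was 0.99 (0.95 to 1.03), with 1.44 in Gm15772-low and 0.45 in Gm15772-high cells.

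Of the 17 members of the Kv1 to Kv4 class, 6 passed the filter in outer hair cells, with 3 higher and 2 lower, and 6 passed in inner hair cells, with 1 higher and 0 lower. Further called members were low. Kcna4 had no count in either control group and stood at 2.33 CPM in Exp OHC and 4.25 CPM in Exp IHC, where 3 of 56 and 4 of 26 cells reached 10 CPM. It was at least 311-fold higher in Exp OHC and at least 494-fold higher in Exp IHC. Kcnc2 stood at 2.32 CPM in Exp OHC with no count in Ctrl OHC, but 79.7% of these counts came from 1 cell. Kcna4 and Kcnc2 no longer reached a mean of 1 CPM in outer hair cells with each group's highest cell left out. Kcnc1 held at most 0.0042 CPM in any group. Of the A-type Kv4 genes, Kcnd1 reached at most 1.92 CPM, of which 88.0% came from 1 Ctrl OHC, and Kcnd3 at most 0.175 CPM.

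The silent Kv subunits form no channel alone and alter Kv2 channels. Kcns3 was the abundant one, with group levels close to each other, at 161 and 173 CPM in the control and mutant OHCs and at 139 and 154 CPM in the control and mutant IHCs. Its cells had medians of 140, 147, 124 and 138 CPM and overlapped over nearly their whole ranges, from 0 to 463 CPM. The log2 ratios were 0.10 (0.09 to 0.12) in outer and 0.14 (0.13 to 0.16) in inner hair cells. Within the sets of cells they were not as close to 0: the OHC ratio was 1.01 in Xist and 1.07 in Gm15772-high cells but -0.24 in Y-linked and -0.43 in Gm15772-low cells. The IHC ratio was 0.67 in Xist and -0.34 in Y-linked cells. Kcng1, at 3.48 CPM in Ctrl OHC and 14.0 CPM in Exp OHC, reached 10 CPM in 4 of 43 and 12 of 56 cells (log2 ratio 2.01, 1.93 to 2.09). In inner hair cells 1 of 26 Exp IHCs carried all of its 2.76 CPM. Kcnf1 stood at 1.03 CPM in Ctrl OHC and 8.20 CPM in Exp OHC, with 1 of 43 and 8 of 56 cells at 10 CPM (log2 ratio 3.00, 2.85 to 3.15, and 5.67 with each group's highest cell left out). In inner hair cells its 2.35 CPM in Exp IHC, with no count in Ctrl IHC, came to 97.3% from 1 cell. In all, 3 of the 4 silent subunits that passed in outer hair cells were higher in Exp OHC and none was lower, beside 18.4% and 13.1% of all genes. The third, Kcng2, was no longer counted with each group's highest cell left out, and its log2 ratio was -1.89 in Xist cells.

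The ERG genes Kcnh6 and Kcnh7 were higher in mutant cells of both types. ERG channels close slowly after a depolarization, and Kcnh2, known from the heart, is the third gene of the family. Kcnh6 was nearly absent from the middle Ctrl OHC, with cells from 0 to 409.9 CPM around a median of 0.269, and stood at 0 to 1117 CPM around a median of 168 in Exp OHC. The share of cells at 10 CPM or more was 18 of 43 in Ctrl OHC (41.9%, exact binomial interval 27.0 to 57.9) and 55 of 56 in Exp OHC (98.2%, 90.4 to 99.95). In Ctrl IHC the cells ran from 0.34 to 432 CPM around 163, and in Exp IHC from 42.5 to 693 CPM around 297. Ctrl OHC was the low group, and Exp OHC and Ctrl IHC had medians close to each other. The group levels of 55.8 and 215 CPM gave a log2 ratio of 1.94 (1.92 to 1.96) in outer hair cells, and those of 189 and 308 CPM gave 0.71 (0.69 to 0.72) in inner hair cells. Control outer hair cells differed among themselves: Kcnh6 reached 10 CPM in 13 of the 18 Gm15772-high cells and in 5 of the 25 Gm15772-low cells. The OHC ratio was 0.62 in Gm15772-high cells and 4.50 in Gm15772-low cells. It was 0.999, just short of 2-fold, in Xist cells and 2.59 in Y-linked cells.

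Kcnh7 had cells from 0 to 411 CPM around a median of 4.43 in Ctrl OHC and from 0.176 to 556 CPM around 136 in Exp OHC. Of these cells 17 of 43 and 53 of 56 reached 10 CPM. In Ctrl IHC the median was 97.1 CPM (0 to 258), and in Exp IHC 214 CPM (53.6 to 621). The levels of 29.5 and 158 CPM gave a log2 ratio of 2.42 (2.40 to 2.45) in outer hair cells, and the levels of 99.2 and 227 CPM gave 1.19 (1.18 to 1.21) in inner hair cells. Over all cells it had the highest ratio of the 4 abundant Kcnh genes in both cell types, and its OHC ratio stayed between 1.58 and 3.36 under all settings tried. Within the sets Kcnh6 had the higher OHC ratio in Gm15772-low cells (4.50 against 3.36) and in Y-linked cells (2.59 against 2.49). The IHC ratio was 0.92 in Gm15772-high cells. Both genes were present together in 10 of 43 Ctrl OHCs and 52 of 56 Exp OHCs, and in 34 of 38 Ctrl IHCs and all 26 Exp IHCs. Per kilobase Kcnh6 was the higher of the pair in every group, at 15.7 against 1.93 CPM per kb in Ctrl OHC and 60.5 against 10.4 in Exp OHC. The annotated exons come to 3.55 kb for Kcnh6 and 15.2 kb for Kcnh7, and Kcnh6 was also the higher in CPM. Kcnh6 (ENSMUSG00000001901.15) lies on the plus strand of chromosome 11, from 106008124 to 106034549, and Kcnh7 (ENSMUSG00000059742.10) on the minus strand of chromosome 2, from 62693414 to 63184287, where 4.57% of its exon bases overlap Gca.

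Kcnh2 and the ELK gene Kcnh8 did not reach 2-fold in either cell type over all cells, although the IHC ratio of Kcnh2 was -1.53 in Y-linked and -1.47 in Gm15772-low cells. Kcnh2 stood at 84.4 and 68.9 CPM in Ctrl OHC and Exp OHC (log2 ratio -0.29, -0.31 to -0.27) and at 99.98 and 72.9 CPM in Ctrl IHC and Exp IHC (-0.46, -0.48 to -0.43). Kcnh8 stood at 49.6 and 63.6 CPM in the OHC groups and at 81.5 and 59.5 CPM in the IHC groups. Both were found in most cells: 32 of 43 Ctrl OHCs held either of them at 10 CPM or more, counted separately, and 35 and 36 of 38 Ctrl IHCs. Of 8 members of the class 4 passed the filter in each cell type, 2 of them higher in outer and 1 in inner hair cells and 0 lower. The sum of the neuron marker list moved in the same direction as Kcnh6 and Kcnh7. Its 6 genes came to 387 CPM in Ctrl OHC (cells 51.5 to 981), 837 in Exp OHC (216 to 1455), 734 in Ctrl IHC (412 to 1143) and 1391 in Exp IHC (504 to 2647). The neurofilament genes Nefl and Nefm carried most of this: Nefl stood at 103 and 292 CPM in the OHC groups and at 376 and 573 CPM in the IHC groups, and Nefm at 78.3 and 351 and at 153 and 522 CPM. Snap25 stood at 203 and 194 CPM in the OHC groups and at 203 and 296 CPM in the IHC groups. Tubb3 (at most 2.16 CPM) and Mapt (at most 2.93 CPM) were lower in the mutant group of both types, Mapt was at 0 in Exp IHC, and Prph was at 0 in all groups. The part of the list in these results was not tested.

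**Figure D3:**
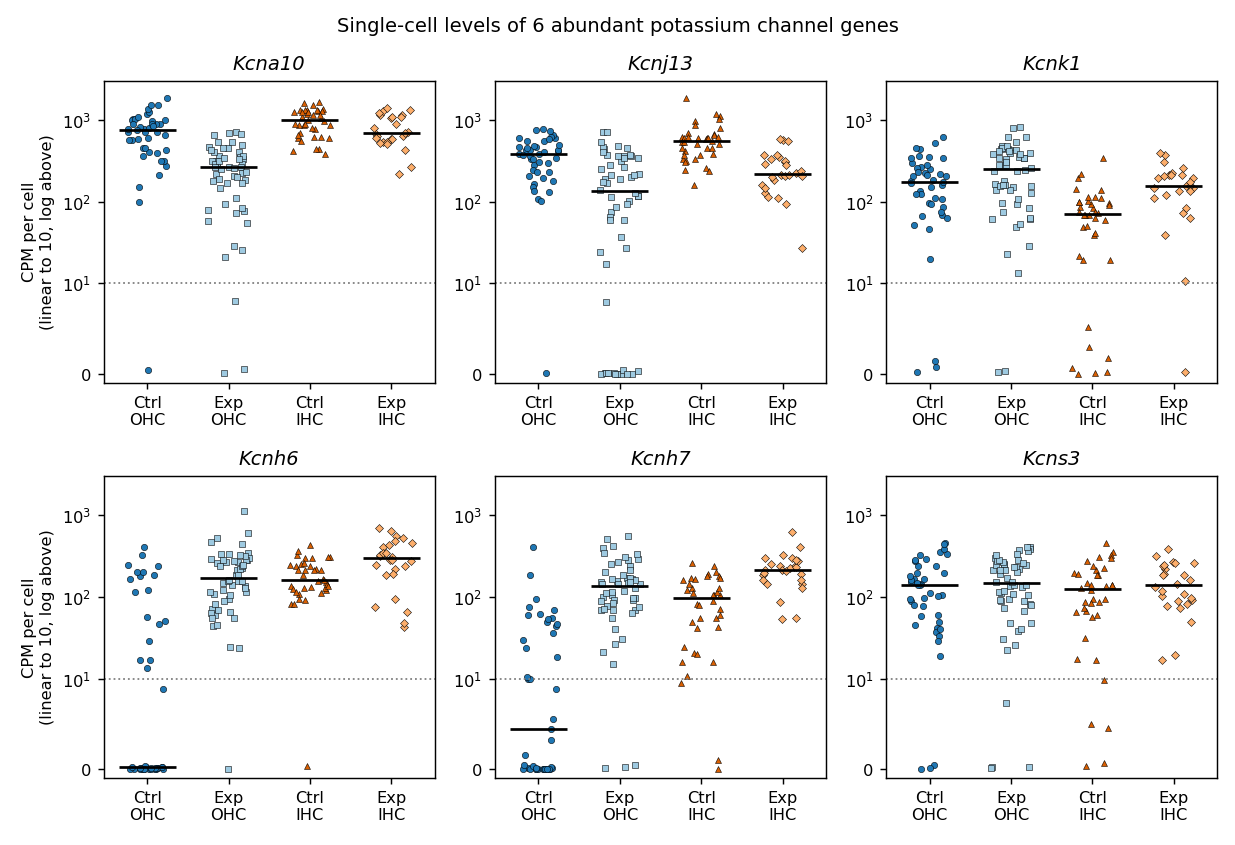
CPM per cell of 6 abundant members in the 4 groups, linear to 10 CPM and logarithmic above, with a bar at the median and a dotted line at 10 CPM. Kcna10 is lower in Exp OHC (median 265 CPM) than in Ctrl OHC (753 CPM), while Kcnh6 and Kcnh7 lie near 0 in many Ctrl OHCs and above 10 CPM in 55 and 53 of 56 Exp OHCs.

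Among the Kv7 genes, Kcnq3 was lower in Exp IHC (0.757 CPM) than in Ctrl IHC (2.33 CPM), on 1 and 3 cells at 10 CPM, at a log2 ratio of -1.62. With its highest cell left out, Exp IHC held 1 count of Kcnq3. The supporting cell markers summed to a median of 309 CPM in the 3 Ctrl IHCs with Kcnq3 and 0.54 CPM in the other 35. In the 1 Exp IHC with Kcnq3 they summed to 6.25 CPM. The part of such transcripts in this ratio was not tested. Kcnq1 had 1 count in all 163 cells.

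The BK channel pore and its beta subunit moved apart. Kcnma1 had cells from 0 to 189 CPM around a median of 13.7 in Ctrl OHC and from 0 to 140 CPM around 0.0814 in Exp OHC. In Ctrl IHC the cells ran from 0.128 to 335 CPM around 61.5, and in Exp IHC from 0 to 123 CPM around 14.1. Ctrl IHC was the highest group and the ranges overlapped. The levels were 25.8 and 11.5 CPM in the control and mutant OHCs and 72.2 and 28.0 CPM in the control and mutant IHCs, with log2 ratios of -1.16 (-1.20 to -1.12) in outer and -1.36 (-1.40 to -1.33) in inner hair cells. The OHC ratio was -0.84 in Xist cells and -0.75 in Gm15772-high cells, and the IHC ratio was -0.66 both in Y-linked and in Gm15772-low cells.
Kcnmb2, the beta subunit that gives BK channels inactivation, had a median of 39.9 CPM in Ctrl OHC (0 to 239.7 CPM), 198 in Exp OHC (0.124 to 667), 112 in Ctrl IHC (0.0989 to 462) and 239.9 CPM in Exp IHC (40.3 to 642). In Exp OHC 47 of 56 cells exceeded the Ctrl OHC median and 21 exceeded the highest Ctrl OHC. The log2 ratio was 1.75 (1.73 to 1.77) in outer hair cells, between 1.61 and 2.15 under all settings tried, and 0.89 (0.87 to 0.90) in inner hair cells. Per kilobase of exon Kcnmb2 exceeded Kcnma1 12.3 times in Ctrl OHC and 93.0 times in Exp OHC, and 11.1 times in Ctrl IHC and 52.6 times in Exp IHC. The size of this excess depends on the annotated exon lengths, 3.13 kb for Kcnmb2 and 17.0 kb for Kcnma1. In CPM the genes stood at 58.7 and 25.8 in Ctrl OHC and at 147 and 72.2 in Ctrl IHC. In Exp OHC 40 of 56 cells held Kcnmb2 without Kcnma1 at 10 CPM and 11 held both, while in Ctrl OHC 15 of 43 held Kcnmb2 alone, 13 held Kcnma1 alone and 10 held both.

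Among the other calcium- or sodium-gated channels, Kcnn1, a small-conductance calcium-activated channel, was uneven between cells. Of 43 Ctrl OHCs 7 reached 10 CPM and of 56 Exp OHCs 3 did so, at group levels of 18.4 and 3.71 CPM. In inner hair cells 5 of 38 Ctrl IHCs and 3 of 26 Exp IHCs reached it, at 5.09 and 11.1 CPM. The log2 ratio was -2.31 (-2.37 to -2.24) in outer and 1.13 (1.04 to 1.21) in inner hair cells, and the latter was 0.55 with each group's highest cell left out, 0.86 with cells weighted equally, 0.11 in Xist cells and 0.47 in Gm15772-high cells. The OHC ratio was -0.89 in Y-linked and -0.87 in Gm15772-low cells. Kcnt1, a sodium-activated channel, stood at 0.155 CPM in Ctrl OHC and 6.88 CPM in Exp OHC, where 6 of 56 cells reached 10 CPM (log2 ratio 5.47, 5.11 to 5.86). All Kcnt1 counts of Ctrl OHC came from 1 cell, and with each group's highest cell left out the log2 ratio was 9.42, a bound against 3 counts. In the whole class 5 of 11 members passed in outer hair cells, 2 higher and 2 lower, and 6 in inner hair cells, 1 higher and 1 lower.

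Kcnj13, an inward rectifier known from the pigment epithelium of the eye and the choroid plexus, held most of the inward rectifier counts. Its cells had a median of 380 CPM in Ctrl OHC (0.156 to 784 CPM), 134 in Exp OHC (0 to 715), 548 in Ctrl IHC (161 to 1883) and 221 CPM in Exp IHC (27.1 to 579.6). Of 56 Exp OHCs 43 reached 10 CPM, beside 42 of 43 Ctrl OHCs and all inner hair cells, so that 13 Exp OHCs lay below it. Of 38 Ctrl IHCs 18 exceeded the highest Exp IHC, and 3 of 43 Ctrl OHCs exceeded the highest Exp OHC. The levels of 392 and 194 CPM gave a log2 ratio of -1.01 (-1.02 to -1.002) in outer hair cells, and those of 591 and 264 CPM gave -1.17 (-1.18 to -1.15) in inner hair cells. The OHC ratio lay at the 2-fold line: it was -0.95 in Y-linked, -0.50 in Xist and -0.72 in Gm15772-high cells. The IHC ratio was -0.97 in Y-linked cells. Kcnj13 (ENSMUSG00000079436.3) lies on the minus strand of chromosome 1, from 87386363 to 87394729. On the opposite strand Gigyf2 overlaps 49.1% of its exon bases, so reads of the pair cannot be told apart without strand. Gigyf2 itself stood at 98.2 CPM at most, below Kcnj13 in every group. This level does not give the part of Gigyf2 reads in the Kcnj13 counts, which was not tested.

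The other inward rectifiers were at low levels. Kcnj11, the pore of the ATP-sensitive channel, stood at 2.81 and 3.31 CPM in Ctrl OHC and Exp OHC and at 10.3 and 12.4 CPM in Ctrl IHC and Exp IHC. Its partner Abcc8 stood at 8.99, 9.60, 24.1 and 26.4 CPM in the same order, and both were higher in inner hair cells of either genotype. The OHC ratio of Kcnj11 over all cells was 0.24, but -1.53 in Xist cells and 2.22 in Y-linked cells. Kcnj2, the strong inward rectifier of immature hair cells, stayed between 1.80 and 3.25 CPM and reached 10 CPM in 1, 2, 3 and 1 cells of the 4 groups.
Kcnj16 and Kcnj10, inward rectifiers of supporting cells and of the stria, were found in few control cells and fewer or no mutant cells. Kcnj16 reached 10 CPM in 4 of 43 Ctrl OHCs (highest 84.0 CPM) and 2 of 38 Ctrl IHCs (59.5 CPM) and had no count in any mutant cell. It was at least 958-fold lower in Exp OHC and at least 287-fold lower in Exp IHC (log2 bounds of -9.90 and -8.17, and -8.30 and -6.88 with each group's highest cell left out, when neither reached a mean of 1 CPM). Kcnj10 reached 10 CPM in 2 of 43 Ctrl OHCs, in 1 of 56 Exp OHCs and 1 of 38 Ctrl IHCs and in 0 of 26 Exp IHCs, and 80.3% of its Ctrl OHC counts came from 1 cell. Its log2 ratio of -2.89 (-3.05 to -2.74) in outer hair cells was -7.75, a bound against 3 counts, with each group's highest cell left out. Cells that held these genes also held supporting cell transcripts. The 7 supporting cell markers summed to a median of 410 CPM in the 2 Ctrl IHCs with Kcnj16 and 0.44 CPM in the other 36, and to 794 CPM in the Ctrl IHC with Kcnj10. In outer hair cells the 4 Ctrl OHCs with Kcnj16 had a median of 76.5 CPM, beside 42.0 in the other 39. Over a group's cells, the list summed to 65.4 and 112 CPM in the control and mutant OHCs and to 68.1 and 15.0 CPM in the control and mutant IHCs, with highest cells at 460.3, 396, 794 and 58.7 CPM in that order. Of its 7 genes 2, 2, 3 and 1 reached 10 CPM in these groups. The rise in the OHC sum was that of Cdh1, from 33.6 to 86.0 CPM. Sox2 stood at 5.47 and 6.47 CPM, and Fgfr3 (22.3 and 17.7 CPM), Gjb2, Gjb6, Sox10 and Slc1a3 were lower in Exp OHC. Gjb6 was at 0 in Exp OHC, and Gjb6, Sox10 and Slc1a3 were at 0 in Exp IHC. The part of such transcripts in these ratios was not tested.

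Of the 15 inward rectifiers 7 passed in outer hair cells, 0 higher and 5 lower, and 6 passed in inner hair cells, 2 higher and 2 lower. The remaining lower ones in Exp OHC were Kcnj4, at 3.45 against 0.564 CPM, and Kcnj12, at 2.33 CPM against no count, which were held at 10 CPM by 4 and 3 of 43 Ctrl OHCs. Leaving out each group's highest cell gave Kcnj4 a log2 ratio of -4.24 in place of -2.61. The 2 higher ones in Exp IHC were Kcnj14, at 5.27 against 1.08 CPM, and Kcnj3, at 5.12 against 1.23 CPM. In Exp IHC 82.9% of the Kcnj14 counts and 88.0% of the Kcnj3 counts came from 1 cell. With each group's highest cell left out, the log2 ratio of Kcnj14 was 1.17 in place of 2.29 and that of Kcnj3 was 1.45 in place of 2.06, and neither then passed the filter of 1 CPM.

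Kcnk1, a two-pore leak channel, was higher in outer than in inner hair cells and higher in mutant cells. Its cells had a median of 173 CPM in Ctrl OHC (0.243 to 617 CPM), 252 in Exp OHC (0.2397 to 810.1), 70.8 in Ctrl IHC (0 to 343) and 157 CPM in Exp IHC (0.256 to 395). The levels were 198, 273, 75.8 and 166 CPM in the same order. The log2 ratio was 1.13 (1.11 to 1.15) in inner hair cells, where 22 of 26 Exp IHCs exceeded the Ctrl IHC median, and 0.46 (0.45 to 0.48) in outer hair cells. The IHC ratio was 0.999, just short of 2-fold, in Gm15772-low cells. Between the control groups Ctrl OHC was higher, with a log2 ratio of 1.39 (1.37 to 1.41) that stayed between 1.03 and 2.07 under all settings tried. Kcnk3, an acid-sensitive leak channel, was lower in both mutant groups. Cells at 10 CPM or more were 13 of 43 Ctrl OHCs and 13 of 38 Ctrl IHCs, but 2 of 56 Exp OHCs and 1 of 26 Exp IHCs, at levels of 12.8, 12.5, 1.63 and 1.35 CPM. The highest cells were at 98.4, 225.5, 43.5 and 25.3 CPM in the same order. The log2 ratios were -2.98 (-3.07 to -2.89) in outer and -3.22 (-3.35 to -3.08) in inner hair cells. With each group's highest cell left out they were -4.21 and -4.37, and in Gm15772-low cells the OHC ratio was -0.86. Control cells with Kcnk3 were unevenly spread over the sets, with 10 of the 18 Gm15772-high and 3 of the 25 Gm15772-low Ctrl OHCs.
The other members of this class were below 10 CPM. Kcnk12 stood at 1.27 CPM in Ctrl IHC and 3.46 CPM in Exp IHC, on 2 of 38 and 4 of 26 cells, and Kcnk7 at 0.485 and 2.05 CPM, on 1 and 2 cells. Kcnk10 stood at 0.786 CPM in Ctrl OHC and 1.78 CPM in Exp OHC, on 1 and 3 cells. The log2 ratio of Kcnk7 was 2.08 and that of Kcnk10 was 1.18. Without its highest cell, Ctrl IHC held 1 count of Kcnk7, and Ctrl OHC held 3 counts of Kcnk10. In the whole class 3 of 14 members passed in outer hair cells, 1 higher and 1 lower, and 4 in inner hair cells, 3 higher and 1 lower.

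Among the auxiliary subunits Kcnab1, a cytoplasmic beta subunit of Kv1 channels, was lower in mutants of both types. Its cells had a median of 17.2 CPM in Ctrl OHC (0 to 261 CPM), 0 in Exp OHC (0 to 146), 66.8 in Ctrl IHC (0 to 429.5) and 1.34 CPM in Exp IHC (0 to 93.7). In Ctrl IHC 31 of 38 cells reached 10 CPM, and 15 of them exceeded the highest Exp IHC. The levels of 48.9 and 12.1 CPM gave a log2 ratio of -2.02 (-2.06 to -1.98) in outer hair cells, and those of 122 and 23.1 CPM gave -2.40 (-2.44 to -2.37) in inner hair cells. The OHC ratio was -0.77 in Xist cells and -0.65 in Gm15772-high cells.
Kcnab2, the related beta subunit, went the other way in inner hair cells, with medians of 19.9 CPM in Ctrl IHC (0 to 108) and 63.6 CPM in Exp IHC (0.0700 to 168). The levels were 25.1 and 64.6 CPM, a log2 ratio of 1.36 (1.33 to 1.40), which was 0.97 in Gm15772-low cells. In outer hair cells it stood at 9.20 and 11.6 CPM, a log2 ratio of 0.34 that was -0.44 in Xist and -0.60 in Gm15772-high cells, and 14 cells of each group reached 10 CPM.
Kcnip3, a calcium-binding protein that joins Kv4 channels and also acts in the nucleus, was mainly found in inner hair cells. It had a median of 87.2 CPM in Ctrl IHC (0 to 245.5) and 37.4 CPM in Exp IHC (0 to 219), and a median of 0 in Ctrl OHC (0 to 168) and Exp OHC (0 to 76.4). The cells at 10 CPM or more were 33 of 38 Ctrl IHCs, 16 of 26 Exp IHCs, 7 of 43 Ctrl OHCs and 1 of 56 Exp OHCs. The log2 ratio was -0.67 (-0.70 to -0.65) in inner hair cells and -3.15 (-3.26 to -3.05) in outer hair cells. The former was -1.30 in Y-linked cells. In outer hair cells it was -7.54 with each group's highest cell left out, since 96.2% of the Exp OHC counts came from 1 cell.
Of 13 members of the class 7 passed in outer hair cells, 2 higher and 3 lower, and 4 passed in inner hair cells, 2 higher and 1 lower. The higher ones in Exp OHC were Kcnab3, at 3.28 CPM against no count, and Kcnip4, at 1.98 against 0.573 CPM, held at 10 CPM by 4 and 3 of 56 cells. The log2 ratio of Kcnip4 was 1.79, and without its highest cell Ctrl OHC held 1 count of it. Kcne2, a small subunit with 1 transmembrane segment, was found at 10 CPM in 1 Ctrl OHC, 1 Exp OHC, 0 Ctrl IHCs and 2 Exp IHCs.

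**Figure D4:**
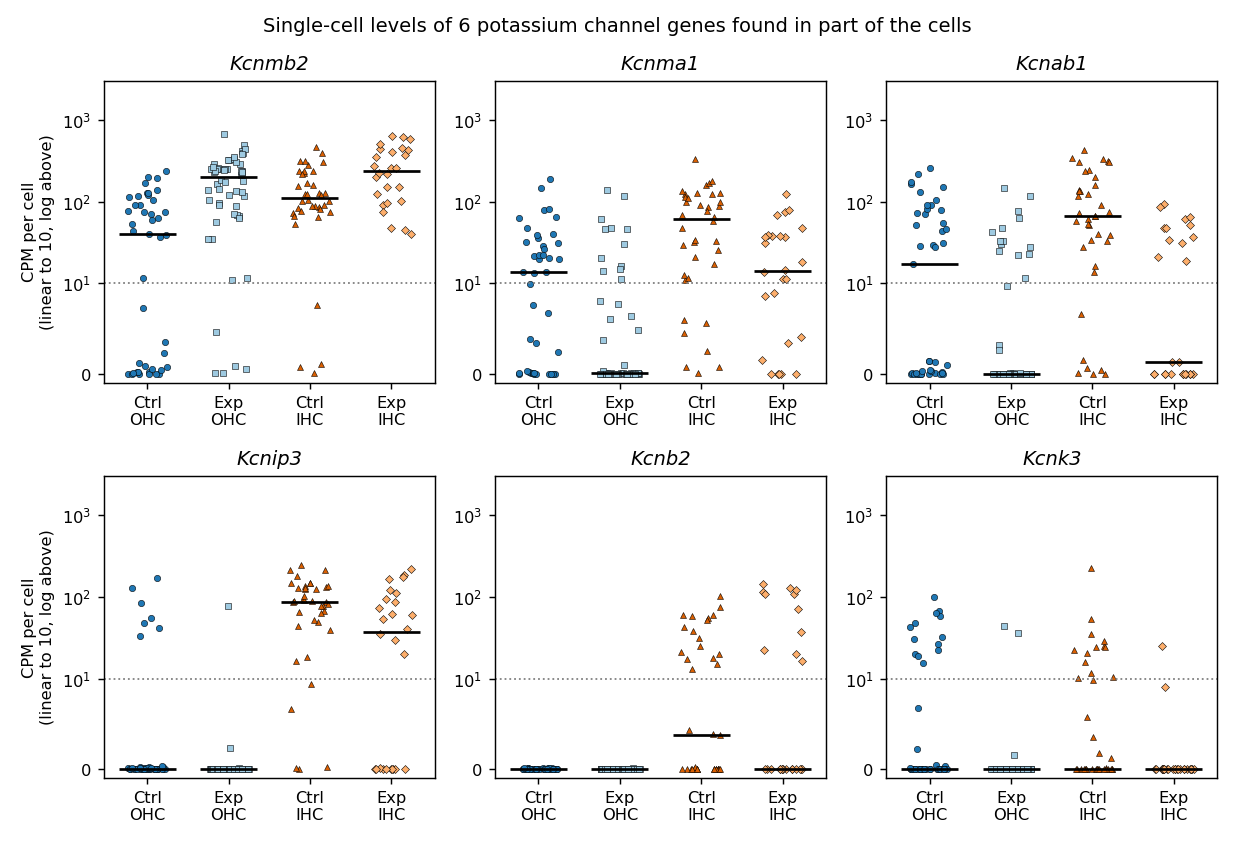
CPM per cell of 6 members found in part of the cells, linear to 10 CPM and logarithmic above, with a bar at the median and a dotted line at 10 CPM. Kcnmb2 is higher and Kcnma1 and Kcnab1 are lower in the mutant group of each cell type, Kcnb2 is at 10 CPM or more in 17 of 38 Ctrl IHCs and 11 of 26 Exp IHCs and in no OHC, and Kcnk3 is at 10 CPM or more in 13 cells of each control group and in 2 Exp OHCs and 1 Exp IHC.

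The genotype ratios of the cell types come from separate cells and can be set side by side. The joint counts that follow were not taken over all genes, so they describe the members and show nothing particular to them. Of the 28 members that passed the filter in both, 5 were higher in both mutant groups, among them Kcna4, Kcnf1, Kcng1 and Kcnh7, and 5 were lower in both (Kcnab1, Kcnj13, Kcnj16, Kcnk3, Kcnma1). Outer hair cells alone were past 2-fold for 6 members, among them Kcna2, Kcna10 and Kcnip3, lower, and Kcnh6 and Kcnmb2, higher in Exp OHC. Inner hair cells alone were past it for Kcnab2 and Kcnk1, 8 members were within it in both, and Kcne2 and Kcnn1 lay on opposite sides. Of the 10 that were past 2-fold in the same direction, those at 10 CPM or more in any group were Kcnh7 and Kcng1, higher, and Kcnab1, Kcnj13, Kcnk3 and Kcnma1, lower, and the Exp IHC level of Kcng1 came from 1 cell. Kcnh6 and Kcnmb2 had the same direction in both types, with IHC ratios of 0.71 and 0.89 over all cells and of 1.02 for each of them in Y-linked cells. None of the differences between the cell types was tested. With each group's highest cell left out, 0 members that passed the filter in both lay on opposite sides. Kcna2 was then past 2-fold in opposite directions, with an IHC log2 ratio of 2.02, but it no longer passed the filter in inner hair cells.

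**Figure D5:**
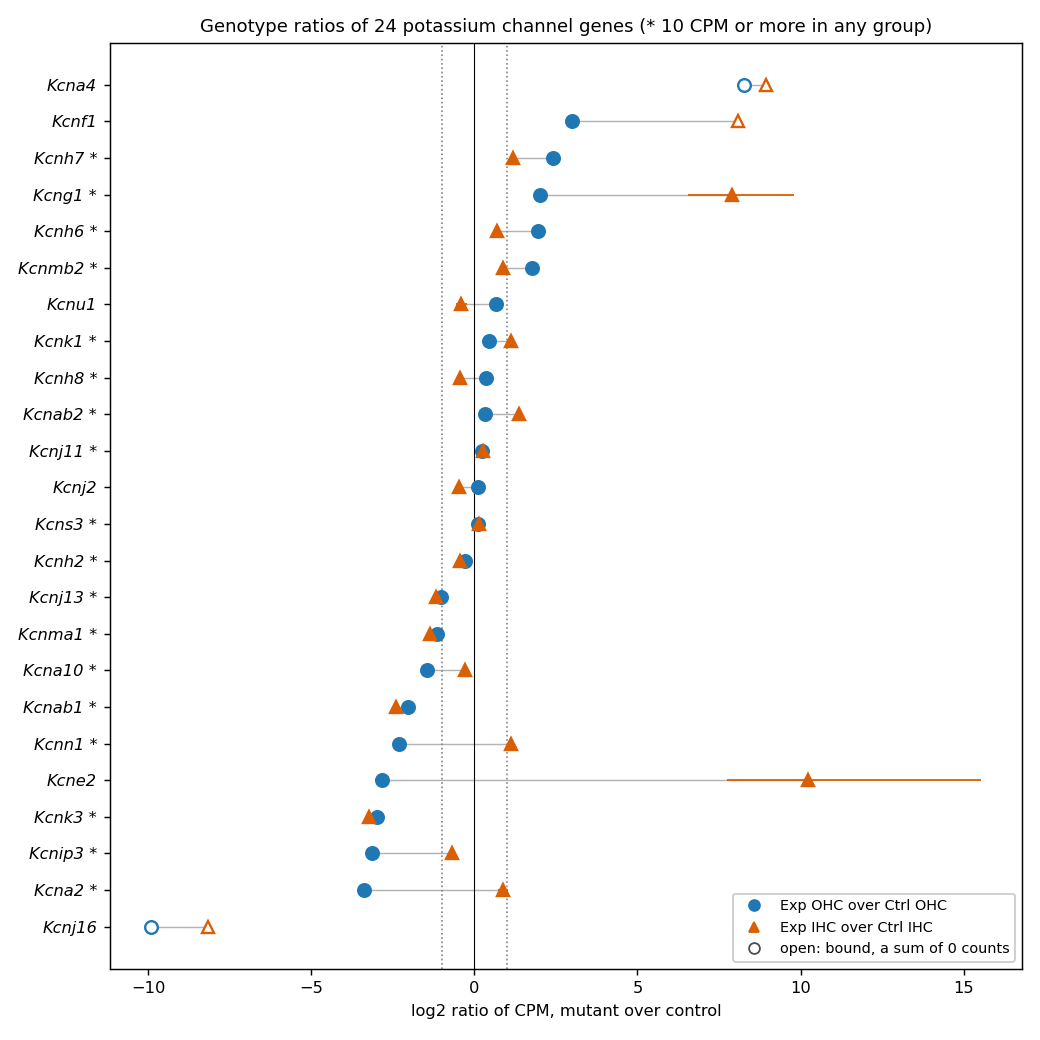
Log2 ratio of mutant over control CPM in outer hair cells (circles) and inner hair cells (triangles) of 24 of the 28 members that passed the filter of 1 CPM in both, with exact 95% intervals of counting error, dotted lines at 2-fold, open markers for bounds and a star for members at 10 CPM or more in any group. Kcnh7, Kcnh6, Kcnmb2, Kcng1, Kcnf1 and Kcna4 have both markers right of 0, and Kcnj13, Kcnma1, Kcna10, Kcnab1, Kcnk3, Kcnip3 and Kcnj16 have both left of 0.

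Control outer and inner hair cells already differed in their potassium channel genes. Of 34 members that passed the filter 11 were higher in Ctrl OHC (32.4%) and 11 higher in Ctrl IHC (32.4%), where 15.3% and 13.4% of 14445 genes were. At a mean of 10 CPM or more, 3 of 18 were higher in Ctrl OHC (Kcna2, Kcnk1 and Kcnn1) and 7 of 18 were higher in Ctrl IHC, beside 9.07% and 6.64% of 9008 genes. The 7 were Kcnip3, Kcnh6, Kcnh7, Kcnma1, Kcnab2, Kcnmb2 and Kcnab1, with log2 ratios of Ctrl OHC to Ctrl IHC from -3.02 for Kcnip3 to -1.32 for Kcnmb2 and Kcnab1. Below that mean, Kcnb2 stood at -9.79 and Kcnj11 at -1.88. In Gm15772-high cells the ratio was -0.86 for Kcnh6, -0.087 for Kcnab2 and -0.77 for Kcnj11, and in Xist cells it was -0.50 for Kcnab2 and -0.77 for Kcnj11. With each group's highest cell left out, 7 members were higher in Ctrl OHC and 10 in Ctrl IHC, of 26 that passed.
This comparison and that of Exp OHC with Ctrl OHC share the Ctrl OHCs, so the levels of the 4 groups are the plainer account. For Kcnh6, Kcnh7 and Kcnmb2, Exp OHC stood at 215, 158 and 198 CPM, above the 189, 99.2 and 147 CPM of Ctrl IHC and the 55.8, 29.5 and 58.7 CPM of Ctrl OHC. For Kcnip3, Kcnma1 and Kcnab1, which were also higher in Ctrl IHC than in Ctrl OHC, Exp OHC stood at 1.25, 11.5 and 12.1 CPM, below both control groups. Kcnab2 lay between them, at 11.6 CPM in Exp OHC, 9.20 CPM in Ctrl OHC and 25.1 CPM in Ctrl IHC, and so did Kcnj11. Kcnb2, at 0.0083 CPM in Exp OHC, was near the floor of 3 counts in both OHC groups, which does not place 1 above the other. Members higher in Ctrl IHC than in Ctrl OHC thus lay above, between or below the control levels in mutant outer hair cells.

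Genes of other families that join potassium channels, or are related to them, were described as a list of 13. In outer hair cells 7 passed the filter, of which 2 were higher and 0 lower in the mutant, beside 18.4% and 13.1% of all genes. In inner hair cells 8 passed, of which 4 were higher and 0 lower, beside 18.8% and 11.7%. Dpp6 and Dpp10, membrane proteins that join Kv4 channels, were higher in both. Dpp10 stood at 35.6 CPM in Ctrl OHC (cells 0 to 127) and 178 CPM in Exp OHC (0 to 542), and at 53.1 CPM in Ctrl IHC (0 to 185) and 111 CPM in Exp IHC (12.8 to 290.5). The log2 ratios were 2.32 (2.29 to 2.34) and 1.06 (1.04 to 1.09). Dpp6 stood at 14.6 and 74.0 CPM in the OHC groups and at 2.62 and 19.8 CPM in the IHC groups, with log2 ratios of 2.34 and 2.92. Of the Kv4 pores Kcnd1 was at most 1.92 CPM and Kcnd2 had no count, and no Exp OHC held Kcnd1 at 10 CPM while 51 of 56 held Dpp10.
Lrrc26, a gamma subunit that lets BK channels open at resting potentials, had no count in any control cell. It was at 10 CPM or more in 13 of 26 Exp IHCs, with the highest at 198 CPM, and in 1 of 56 Exp OHCs. The Exp IHC level was 40.4 CPM, at least 12.20 log2 units above Ctrl IHC. Of those 13 cells 8 also held Kcnma1 at 10 CPM. Hcn4, a cation channel gated by cyclic nucleotides, stood at 8.93 CPM in Exp IHC and 4.05 CPM in Ctrl IHC. Amigo1, a partner of Kv2 channels, stood at 16.7 and 31.6 CPM in Ctrl OHC and Exp OHC (log2 ratio 0.92, 0.88 to 0.96) and at 8.06 and 7.61 CPM in the IHC groups.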

How the data were processed

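Single hair cells were picked by their red fluorescence at P7 and sequenced as full-length cDNA, per the labels' protocols. The authors deposited raw read counts of every gene in each cell, made with HISAT2 2.2.1, SAMtools and featureCounts 2.0.1 on mm10, per the submitters' processing notes. Whether strand was used, how multi-mapped reads were counted and which annotation release was taken are not given in the sources used here. Of 55291 identifiers 55034 (99.5%) matched a symbol, and the other identifiers held 0.0128% of the counts. Exon lengths and overlaps came from GENCODE M21.

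With 1 sample a group no count model was fitted. Counts were summed per group, scaled to CPM and compared as log2 ratios, with Python 3.11.15, pandas 2.3.3 and SciPy 1.17.1. Intervals are exact Poisson for levels, exact conditional binomial (Clopper-Pearson) for ratios and exact binomial for shares, all at 95% and for counting error only. A sum of 0 was set at a group floor of 3 counts (0.00751 and 0.00416 CPM in the OHC groups, control first, and 0.00861 and 0.00822 CPM in the IHC groups). A level of 10 CPM had an interval of 9.69 to 10.3 CPM in Ctrl OHC and 9.77 to 10.2 CPM in Exp OHC. Cells of a group never agreed within sampling noise (smallest chi-square per degree of freedom 275). The steps were tested on simulated data.

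Members were named at 10 CPM or more in any group, past 2-fold at a mean of 1 CPM or more (at most 15 each way), or as genes known from cochlear physiology. Some members are counted but not reported by name here. The partner and marker lists and the members were chosen with earlier results of these data known. Alternatives were TMM factors (edgeR 4.0.16), cells with equal weight, totals without mitochondrially encoded genes, cells left out, sets of cells by sex and by Gm15772, and other filters and thresholds. Marker lists of glia, mesenchyme, strial marginal, erythroid, immune and endothelial cells summed to at most 7.20, 7.93, 87.6, 0.784, 1.14 and 2.20 CPM in any group. The strial sum was that of Wnk2, at 87.6 CPM in Ctrl IHC, while Esrrb, Atp13a5 and Lmx1a were at 0.311 CPM or less in every group. The inner hair cell list summed to 1157 and 393 CPM in the OHC groups and to 3506 and 2224 CPM in the IHC groups. In the OHC groups nearly all of it was Otof, at 1151 CPM in Ctrl OHC and 390 CPM in Exp OHC. Slc17a8, Tbx2 and Fgf8 were at 6.16 CPM or less there.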

Additional observations from a re-analysis of the deposited data

Results flagged for a closer look

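Members whose genotype ratios lay past 2-fold in opposite directions in outer and inner hair cells were Kcne2 and Kcnn1. The log2 ratio in outer hair cells minus that in inner hair cells was -13.06 for Kcne2 and -3.43 for Kcnn1. The IHC ratio of Kcne2, 10.22, set 3.43 CPM in Exp IHC against 1 count in Ctrl IHC. That count lies under the floor of 3 counts, so the size of the Kcne2 difference carries no weight. These differences were not tested. Kcne2 was at 10 CPM or more in 1 of 43 Ctrl OHCs and 1 of 56 Exp OHCs, and in 0 of 38 Ctrl IHCs and 2 of 26 Exp IHCs. Kcnn1 was so in 7, 3, 5 and 3 cells of these groups in turn. With each group's highest cell left out neither was past 2-fold at 1 CPM in both cell types.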

How the results depend on the processing

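No paired analysis was possible because each group is 1 sample and the cell numbers in the labels tie no cells across groups. TMM factors moved the log2 ratios of all genes by -0.03 in outer hair cells, -0.09 in inner hair cells and -0.02 between the control types. With TMM factors, with totals without mitochondrially encoded genes, and without the Ctrl OHC that lacks outer hair cell markers, every called member stayed past 2-fold. Under all settings that gave a ratio, 10 of 14 higher and 6 of 13 lower members stayed past it in outer hair cells, 5 of 13 and 4 of 6 in inner hair cells, and 8 of 11 and 6 of 11 between the control types. These numbers did not require a mean of 1 CPM under each setting, so fewer members passed both limits throughout. Kcna4 and Kcnc2, among the 10, fell short of that mean without the highest cells and in Xist cells. With each group's highest cell left out, the higher members numbered 8 of 27 that passed in outer hair cells, 6 of 24 in inner hair cells and 7 of 26 between control types. At a filter of 5 CPM the counts were 5 higher and 8 lower in outer hair cells, 4 higher in inner hair cells and 3 higher in Ctrl OHC. With no filter they were 21 lower in outer hair cells, 20 higher and 21 lower in inner hair cells, and 17 higher and 28 lower in Ctrl OHC against Ctrl IHC. Of inner hair cell ratios 20 were higher in Y-linked cells and 10 lower in Gm15772-low cells. Members on opposite sides in the cell types numbered 1 with equal weights and 0 without the highest cells, both at 1 CPM. They numbered 1 in Gm15772-high cells at 1 CPM, 5 with no filter, 1 at 5 CPM and 4 past 1.5-fold. Among called members the log2 ratio changed sign for these, all at low levels. Between control types, Kcnd1 was at -0.58 without the highest cells. In outer hair cells, Kcne2 was at 4.23 in Xist cells and 1.77 in Gm15772-high cells, Kcng2 at -1.89 in Xist cells, and Kcnk10 at -2.36 and -1.89 in the same sets as Kcne2. In inner hair cells, Kcnj14 was at -5.65 in Y-linked cells and -5.82 in Gm15772-low cells, Kcnk12 at -4.99 and -5.16 in these sets, and Kcnk7 at -0.32 in Xist cells. Ratios short of 2-fold also changed sign within sets of cells: that of Kcna10 in inner hair cells, Kcnab2 in outer hair cells, Kcnj11 in both, Kcns3 in all 3 comparisons, and between control types Kcnh2 (0.69 in Xist and 0.30 in Gm15772-high cells) and Kcnk3 (-0.14 in Xist, -0.066 in Gm15772-low cells and -0.11 with equal weights). The causes were not tested. Thinning to 5e+06 counts per cell moved 0 of 84 shares of cells, and a threshold of 1 CPM moved 6 of 84.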

Other observations

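Relations between members across the cells of a group differed between the groups. Among 210 pairs of the 21 members at 10 CPM or more, Kcnab1 and Kcnj13 had the highest lowest value over the 4 groups. Their Spearman rho was 0.16 over 43 Ctrl OHCs, 0.35 over 56 Exp OHCs, 0.41 over 38 Ctrl IHCs and 0.27 over 26 Exp IHCs. Kcnh6 and Kcnh7 had a rho of 0.47 in Ctrl OHC, 0.18 in Ctrl IHC, 0.31 in Exp IHC and -0.09 in Exp OHC. Negative values were also found: Kcnk1 and Kcnj13 had a rho of -0.66 in Exp OHC and -0.47 in Ctrl OHC, but -0.029 in Ctrl IHC and 0.071 in Exp IHC. Kcnmb2 and Kcnj13 had -0.51 in Exp OHC and -0.49 in Exp IHC, beside 0.035 in Ctrl OHC and -0.0058 in Ctrl IHC. All genes of a cell share its library and depth, so these values describe the cells and were not tested.

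Some members lie close together on the genome, and some of these neighbours, but not all, differed in level. Kcnj5 and Kcnj1, 28.1 kb apart on chromosome 9, both had no count. On chromosome 3 Kcna3, Kcna2 and Kcna10 follow each other with gaps of 63.1 and 68.05 kb. Kcna3 had no count, Kcna2 reached 20.9 CPM at most and Kcna10 reached 986 CPM. On chromosome 11 Kcnj16 and Kcnj2 lie 38.2 kb apart. Kcnj16 had no count in any mutant cell, while Kcnj2 stood at 1.94 CPM in Exp OHC and 2.34 CPM in Exp IHC. Kcnj2 reached 10 CPM in 2 Exp OHCs and 1 Exp IHC. The highest group levels of Kcnj16 and Kcnj2 were close, at 3.99 and 3.25 CPM.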
